A study of Mus musculus with 26 samples.

Results

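Solute carriers are the membrane proteins that move sugars, amino acids, ions, metals, vitamins, nucleotides and metabolites across the plasma membrane and across the membranes of mitochondria, vesicles, endoplasmic reticulum and Golgi. Their transcripts were described here in 5 exocrine glands of the mouse head and in both sexes. The members were all array probes whose single gene symbol begins with Slc and a digit, without Slc4a4, Slc12a2 and Slc27a2. The rule found 167 of the 8841 genes that have a probe of their own, on 169 of 10500 probes. Of these probes, 130, each for a different gene, reached the 30th percentile of their array on every measured array of at least 1 group of gland and sex and were tested. The other 39 did so in no group and were not tested. The symbol rule also takes in 3 genes that are no carriers but are named after one, Slc4a1ap, Slc9a3r1 and Slc9a3r2.

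The arrays measured mRNA of the submandibular, sublingual and parotid salivary glands, of the lacrimal gland and of the meibomian gland of male and female BALB/c mice, an inbred laboratory strain, with no treatment named. Each of the 26 arrays held RNA pooled from 5 animals (10 glands). Each sex had 3 pools (A, B and C) of the meibomian, lacrimal and submandibular glands and 2 pools (A and B) of the parotid and sublingual glands, which makes 10 groups, with 13 female and 13 male arrays. The age of the mice was not given in the sources used here. Since pools were whole glands, fewer cells of a type and less RNA per cell cannot be told apart.

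Levels are scaled intensities, with array medians between 0.928 and 0.955, and a group level is a geometric mean over pools. They serve to compare a probe between arrays and not to compare probes with each other. Differences are on the log2 scale with their standard errors, adjusted p-values are from limma with the Benjamini-Hochberg method over all 8211 probes tested, and n is the number of pools. A group in which a probe lay below the 30th percentile on every array is called dim, and a fold against it is given as a lower bound, with the dim side raised to the percentile. The median SD between pools of a group over members was, on the log2 scale, 0.514 (lacrimal), 0.358 (submandibular), 0.333 (parotid), 0.325 (sublingual) and 0.250 (meibomian). The arrays fell into 10 of a set 1 and 16 of a set 2 by the main axis of the deviations from the group means, which took 38.1% of their variance. Both sets hold both sexes of every gland, and set 1 holds 1 pool per group. Defining genes of the glands were checked against the labels. The 4 submandibular duct probes (Klk1b5, Klk1b24, Egf and Smr2) were all called higher there, but 3 of 4 were also called higher in the sublingual and 2 of 4 in the parotid gland, and Smr2 was highest in the parotid (25.2 against 15.4). Further, 5 of 5 probes of lacrimal acinar genes and 5 of 6 of meibomian genes were called higher in their own gland. Of the lacrimal acinar probes, 3 were also called higher in the sublingual, 2 in the submandibular, 1 in the parotid and 1 in the meibomian gland. The meibomian gene Mc5r was highest in the lacrimal gland (4.18 against 0.633 in the meibomian). The parotid acinar list had 2 tested probes, called higher in all 3 salivary glands, and the sublingual mucous list had 1 tested probe.

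Salivary and lacrimal acinar cells secrete salt, water and protein, and ducts then change the ion content of the fluid. This work needs carriers at the basal membrane that load chloride, bicarbonate, glucose and amino acids, carriers at the duct surface that take salt back, and Golgi carriers that bring in sugar nucleotides for glycoproteins. Meibomian cells are sebaceous, filling with lipid and releasing it by bursting. They depend on fatty acid uptake and activation and on the mitochondrial export of carbon for lipid synthesis.

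Most members differed between the glands. Of the 130 members tested, 113 passed the F test among the 5 glands, beside a background of 80.5% of all probes tested. That background also holds for the counts past this F test by role below. The median distance from the lowest to the highest gland mean was 1.67 for members and 1.42 for all probes tested. The distance was over 4 for 11 members and under 1 for 29. The widest were Slc23a1 (6.57), Slc22a2 (5.33), Slc17a6 (5.27) and Slc25a37 (5.19). At the other end lay the Golgi and membrane proteins Slc35f6 (0.42) and Slc35a5 (0.46), the dopamine transporter Slc6a3 (0.46) and the potassium-chloride cotransporter Slc12a7 (0.49), and none of these 4 passed the F test (adjusted p = 0.179, 0.684, 0.440 and 0.418).

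The meibomian gland stood furthest from the others. Against the mean of the other 4 glands, with an adjusted p under 0.05 and a log2 difference of at least 1, 65 of 130 members were called there, 23 higher and 42 lower. The background was 37.9% for all calls, 17.0% for higher and 20.9% for lower ones. The median of the members was -0.48 and that of all probes -0.09. In the lacrimal gland 30 members were called (background 20.2%), 21 higher (11.6%) and 9 lower (8.57%). The parotid gland had 29 (background 17.1%), with 18 higher (8.94%) and 11 lower (8.12%). The submandibular gland had 15 (background 12.3%), with 8 higher (5.69%) and 7 lower (6.60%). The sublingual gland had 13 (background 11.1%), with 10 higher (5.87%) and 3 lower (5.25%). As shares of the 130 members these higher and lower calls were 16.2% and 6.92% in the lacrimal, 13.8% and 8.46% in the parotid, 6.15% and 5.38% in the submandibular and 7.69% and 2.31% in the sublingual gland. In the meibomian gland the shares were 17.7% and 32.3%. The submandibular shares, the meibomian and sublingual shares of higher calls and the parotid and lacrimal shares of lower calls lay near their background. Some members passed the filter on low values through 1 gland alone, 11 in all (4 through the meibomian, 3 through the lacrimal, 2 through the submandibular, 1 through the parotid and 1 through the sublingual gland). All but Slc24a3 were called higher in that gland, a direction the filter fixes, and no test is given below for such a member in that gland. Each of these comparisons uses the other glands as its reference, so they share arrays. The lacrimal gland was the highest gland for 40 members, the meibomian for 29, the parotid for 25, the submandibular for 20 and the sublingual for 16. The lacrimal share of 30.8% lay near its background of 29.2% over all probes tested. The meibomian share of 22.3% lay below its background of 31.5%. The parotid share was 19.2% (background 15.1%) and the submandibular 15.4% (13.2%). The sublingual share of 12.3% also lay near its background. The meibomian gland was the lowest for 66 members. The arrays of the highest gland lay apart from those of every other gland for 32 members, at a background of 19.4%. With female arrays alone 61 members were called in the meibomian gland and with male arrays alone 62, and 53 were called in both. In the parotid 17 members were called in both such fits, in the lacrimal gland 17, in the submandibular 8 and in the sublingual 7. No background was taken for the counts of the lowest gland and of the fits with 1 sex.

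**Figure D1:**
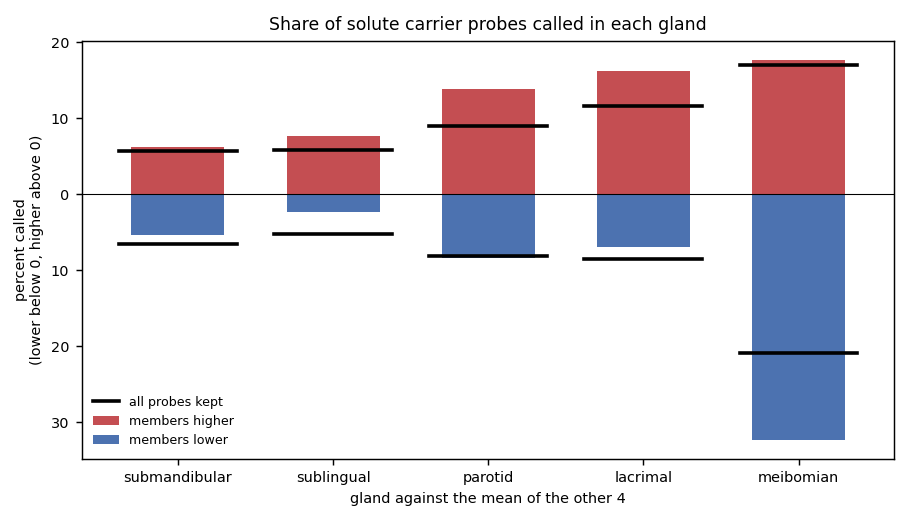
Bars give the percent of the 130 members called in each gland against the mean of the other 4 glands, higher above 0 and lower below 0, and black lines give the same percent over all 8211 probes. The meibomian bar for lower calls is the longest, 32.3% beside 20.9%.

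Markers of other tissues varied with the glands too. The 11 tested skeletal muscle probes were all higher in the parotid and meibomian glands, with summed levels of 74.5 to 348 and 263 to 484, beside 4.06 to 29.8 in the submandibular, 3.24 to 7.59 in the sublingual and 4.39 to 8.62 in the lacrimal gland. All 7 adipocyte probes were called higher in the parotid (160 to 482) and 6 of 7 lower in the lacrimal gland (11.4 to 46.2). Adipocyte probes were also called higher in the submandibular gland (4 of 7, 102 to 230) and lower in the meibomian gland (4 of 7, 66.5 to 81.2). Of 5 keratinocyte probes 4 were higher in the meibomian gland (106 to 184, and at most 26.4 elsewhere). In the sublingual gland 5 of 7 T cell probes and 4 of 5 B and plasma cell probes were higher. Of 7 smooth muscle and myoepithelial probes 6 were lower in the parotid, 5 lower in the lacrimal gland and 4 higher in the meibomian gland. The part of these tissues in the gland differences below was not tested.

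Among the sugar carriers, 10 of 14 probes were tested and 9 passed the F test among glands. Slc5a11, which takes up inositol with sodium, passed the filter through the sublingual gland alone. Its level was 2.23 and 1.94 in the female and 2.27 and 5.60 in the male sublingual pools, and between 0.0569 and 0.619 on the arrays of the other glands. Every sublingual array lay above every other array (at least 8.70-fold above the mean of the other glands), a direction the filter fixes. Slc2a4, the insulin-responsive glucose transporter of muscle and fat, was highest in the submandibular gland at 5.32 (3.35 to 7.32), beside 3.05 in the parotid and 0.729 in the meibomian gland, and called higher in the first (1.78 ± 0.17, adjusted p = 9.89e-08). Of the lists for these tissues, summed skeletal muscle levels were lower in the submandibular than in the parotid and meibomian glands. Adipocyte probes were called higher in the submandibular gland (4 of 7, summed level 102 to 230) and in the parotid, and lower in the lacrimal and meibomian glands, as given above. Their part in the Slc2a4 levels was not tested. Slc2a1, the glucose transporter found in most cells, was at 7.92 in the meibomian gland (6.11 to 10.8), at 1.11 in the parotid and at 1.85 to 2.03 in the remaining glands. Male lacrimal B, at 7.33, lay inside the meibomian range, and the other lacrimal pools were at 1.10 to 1.80. The meibomian level was 4.69-fold above the mean of the others (2.23 ± 0.25, adjusted p = 1.22e-07) and the parotid was called lower (-1.32 ± 0.29, adjusted p = 0.00118). Slc50a1, a sugar transporter of the SWEET family, was below all other arrays in the meibomian gland (1.12 to 2.31 against 2.40 to 9.94; -1.57 ± 0.18, adjusted p = 2.84e-07).

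The amino acid carriers formed the largest group, with 19 of 26 probes tested, all 19 past the F test among glands. Higher and lower calls numbered 2 and 6 in the meibomian gland (background 17.0% and 20.9%) and 4 and 2 in the parotid (8.94% and 8.12%). They were 3 and 1 in the lacrimal (11.6% and 8.57%), 1 and 2 in the submandibular (5.69% and 6.60%) and 1 and 0 in the sublingual gland (5.87% and 5.25%). Among the higher calls, Slc7a15 (meibomian) and Slc7a10 (parotid) passed the filter through that gland alone. Slc7a1, a cationic amino acid transporter, was a parotid member, at 3.56 and 0.987 in the female pools A and B and at 3.49 and 1.22 in the male ones. Both A pools were well above both B pools, and all 4 were above the arrays of the other glands (0.0688 to 0.724). The difference was 2.73 ± 0.34, at least 4.96-fold, with an adjusted p of 2.36e-06. Slc7a5, the large neutral amino acid transporter, was a lacrimal member, with 5.90 as the lowest, 6.59 as the median and 13.7 as the highest pool. The other glands ran from 0.458 to 3.84, so all 6 lacrimal arrays lay above them (2.08 ± 0.26, 4.23-fold, adjusted p = 3.07e-06). Its lowest gland was the submandibular (1.06; -1.57 ± 0.26, adjusted p = 1.41e-04), a call lost when missing cells were set to the floor (adjusted p = 0.539), since both parotid A pools held no value.

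Sodium-coupled neutral amino acid carriers differed between the same glands in other orders. Slc38a1, which carries glutamine, was at 2.10 in the sublingual, 1.34 in the parotid, 1.02 in the lacrimal, 0.795 in the submandibular and 0.0606 in the meibomian gland, where it was dim. The meibomian arrays (0.0320 to 0.0923) lay below all others (at least 4.22-fold, -4.34 ± 0.26, adjusted p = 8.02e-12). The sublingual and parotid means did not differ beyond their spread (0.64 ± 0.39, adjusted p = 0.277). Slc1a5, another glutamine carrier, was 4.74-fold lower in the meibomian gland (0.390 to 0.503, with 0.796 to 7.38 elsewhere; -2.25 ± 0.21, adjusted p = 1.42e-08) and 2.97-fold higher in the lacrimal gland (1.57 ± 0.21, adjusted p = 4.95e-06). Slc38a2, a close relative of Slc38a1, was lowest in the lacrimal gland at 1.48 (0.803 to 4.62; -1.20 ± 0.28, adjusted p = 0.00165), and without male lacrimal A the difference was below the size threshold at -0.94. Slc38a3, of the same family, was highest in the lacrimal gland at 0.765 (0.458 to 1.97) and lowest in the parotid at 0.137 (0.0234 to 0.370), where it was called lower (-1.54 ± 0.42, adjusted p = 0.00688). That parotid call was lost without female parotid A (adjusted p = 0.0668) or male parotid B (0.160), and with the random replicate block (0.0782).

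Of the sodium- and chloride-coupled carriers of transmitters and related amino acids, 5 of 8 probes were tested. In the meibomian gland 2 were called higher (background 17.0%), of which Slc6a4 passed the filter through that gland alone. Slc6a14, a broad transporter of neutral and cationic amino acids in epithelia, was at 3.80, 5.79 and 6.99 (lowest, median and highest pool) in the meibomian gland and at 0.480 to 1.77 on all other arrays (2.51 ± 0.22, 5.70-fold, adjusted p = 4.08e-09). Slc6a4, the serotonin transporter, was at 1.0, 1.14 and 2.02 there and at 0.0962 to 0.793 elsewhere (at least 3.75-fold). It was dim in the submandibular and sublingual glands.

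Of 10 organic ion carrier probes 7 were tested, and all 7 passed the F test among glands. Higher and lower calls numbered 1 and 5 in the meibomian gland (background 17.0% and 20.9%) and 2 and 1 in the parotid (8.94% and 8.12%). They were 2 and 1 in the lacrimal (11.6% and 8.57%), 1 and 1 in the sublingual (5.87% and 5.25%) and 1 and 0 in the submandibular gland (5.69% and 6.60%). The higher call in the meibomian gland was Slc22a4, whose direction the filter fixes. Slc22a2, an organic cation transporter best known from the kidney, was at 7.49, 4.52, 6.46 and 3.37 in the parotid pools (female A and B, male A and B). It reached 0.951 to 1.83 in the sublingual pools and was dim in the meibomian gland at 0.129. The parotid level was at least 9.77-fold above the mean of the others (3.58 ± 0.21, adjusted p = 3.49e-11) and also above the sublingual level, next in order (1.90 ± 0.27, adjusted p = 2.72e-05). Slc22a6, the renal organic anion transporter that exchanges anions for dicarboxylates, was at 4.12, 5.45, 4.41 and 8.10 in the parotid pools and at 0.201 to 1.49 elsewhere (3.23 ± 0.31, 9.40-fold, adjusted p = 5.46e-08). Slc22a12, the urate exchanger of the kidney, was at 9.22, 11.9 and 16.6 (lowest, median and highest) in the lacrimal gland. The submandibular pools came next at 5.39 to 8.08, and the meibomian were lowest at 1.33 to 1.79 (2.17 ± 0.15, 4.50-fold, adjusted p = 3.02e-10 for the lacrimal gland). Slc22a18 was at 5.11 to 11.1 in the lacrimal gland and at 0.698 to 3.37 elsewhere (2.18 ± 0.15, adjusted p = 2.83e-10), and lowest in the parotid at 1.03 (-1.39 ± 0.18, adjusted p = 2.66e-06). Slc22a4, the ergothioneine transporter, passed the filter through the meibomian gland alone. It was dim in the sublingual (its lowest), parotid (0.178) and lacrimal glands (0.282), so no fold between these can be bounded. The sodium-bile acid cotransporters had 2 probes, both tested. Slc10a1, the liver form, was highest in the parotid at 6.31 (1.56 ± 0.32, adjusted p = 7.28e-04). Its parotid B pools (8.09 and 10.5) were above the A pools (3.48 and 5.40). Slc10a2, the ileal form, was highest in the lacrimal gland, at 0.874 to 1.93 against 0.0634 to 0.353 on all other arrays (at least 4.63-fold). It passed the filter through that gland alone.

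The 2 urea transporters were highest in different glands. Slc14a2, the renal urea transporter, was at 6.25, 4.65, 5.56 and 7.03 in the parotid pools and at 0.256 to 1.76 elsewhere (3.0 ± 0.24, 7.98-fold, adjusted p = 3.33e-09). Slc14a1, the urea transporter of red cells and kidney, had 1 tested probe, highest in the submandibular gland at 0.714, 0.892 and 2.61 (lowest, median and highest) and at 0.0489 to 0.607 elsewhere (2.27 ± 0.28, at least 3.17-fold, adjusted p = 2.40e-06). It was dim in the parotid and meibomian glands, and the parotid was its lowest gland (-1.66 ± 0.32, at least 1.06-fold, adjusted p = 3.91e-04). Another Slc14a1 probe reached the percentile in no group and was at 0.0234 to 0.196 in the submandibular gland, so the submandibular pattern rests on 1 of 2 probes. Of 3 tested red cell probes none was called between the submandibular and the other glands, with summed levels of 80.6 to 127 there. The part of red cells in the Slc14a1 levels was not tested. Slc44a4, a choline and thiamine pyrophosphate transporter, was at 5.30 in the sublingual gland and 3.53 in the lacrimal gland, at 1.33 in the submandibular, and at 0.618 and 0.604 in the parotid and meibomian glands. It was called higher in the first (2.20 ± 0.31, adjusted p = 2.23e-05) and second (1.47 ± 0.27, adjusted p = 1.21e-04), and lower in the last pair.

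Monocarboxylate carriers, which move lactate, pyruvate and ketone bodies with protons, split into opposite patterns. Of 6 probes 5 were tested and 4 passed the F test. Slc16a7 was highest in the parotid, at 16.1, 11.4, 16.5 and 9.74, and lowest in the meibomian gland, at 0.927 to 1.24, with 2.11 to 6.81 in the other glands (2.18 ± 0.17, adjusted p = 3.35e-09 in the parotid; -2.34 ± 0.15, adjusted p = 2.49e-11 in the meibomian gland). Slc16a1 was highest in the meibomian gland at 5.21 and next in the lacrimal gland at 3.25, which differed (0.68 ± 0.28, adjusted p = 0.0429), and lowest in the submandibular at 0.803 (-1.44 ± 0.23, adjusted p = 6.34e-05). Male lacrimal B, at 6.28, lay inside the meibomian range of Slc16a1 (4.33 to 7.12), and the other lacrimal pools were at 2.45 to 4.07. Slc16a9, a carnitine and creatine carrier, was at 1.39 to 2.20 in the meibomian gland and 0.104 to 1.14 elsewhere (2.18 ± 0.29, adjusted p = 1.51e-06), and lowest in the submandibular gland (-1.85 ± 0.29, adjusted p = 5.24e-05).

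The carriers of fatty acids and of their derivatives were highest in the meibomian and parotid glands. Slc27a4, a fatty acid transport protein with acyl-CoA synthetase activity, was at 5.0, 6.51 and 7.14 (lowest, median and highest) in the meibomian gland and at 0.495 to 1.72 on all other arrays. This was a 6.88-fold difference (2.78 ± 0.16, adjusted p = 7.24e-12). Its lowest gland was the sublingual (0.703; -1.17 ± 0.19, adjusted p = 1.09e-04), with a difference of -1.0 without male sublingual B, which no longer reached the size threshold. Slc27a5, the bile acid and fatty acid CoA ligase of liver, was highest in the parotid, at 1.94, 1.77, 2.07 and 2.37, with 0.240 to 1.06 elsewhere (1.90 ± 0.24, adjusted p = 2.58e-06). Slc27a1, the muscle and fat form, was at 3.36 in the meibomian and 2.58 in the parotid gland, which did not differ beyond their spread (0.38 ± 0.30, adjusted p = 0.293), the glands with the highest skeletal muscle sums.

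Among the vitamin carriers, 4 of 5 probes were tested and 3 passed the F test. Slc23a1, the sodium-ascorbate transporter of epithelia, had the widest gland range of all members. It was at 3.39, 4.92 and 11.8 (lowest, median and highest) in the lacrimal gland, at 0.532 in the sublingual and 0.418 in the submandibular gland, and dim in the parotid (0.144) and meibomian glands (0.0608). All 6 lacrimal arrays lay above the other 19 measured ones, and the level was at least 14.9-fold above the mean of the other glands (4.78 ± 0.31, adjusted p = 1.77e-10). Slc19a2, a thiamine transporter, was at 3.02 to 3.64 in the meibomian gland and 0.255 to 1.01 elsewhere (2.74 ± 0.17, 6.67-fold, adjusted p = 1.57e-10). It held no value on 3 arrays of the submandibular and lacrimal glands. Its relative Slc19a3 was above the percentile in the meibomian gland alone, at 0.279 to 0.412, and dim in the other 4 glands, which leaves its size of difference unknown. It passed the filter through the meibomian gland alone, so its test there is fixed by the filter and not given.

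**Figure D2:**
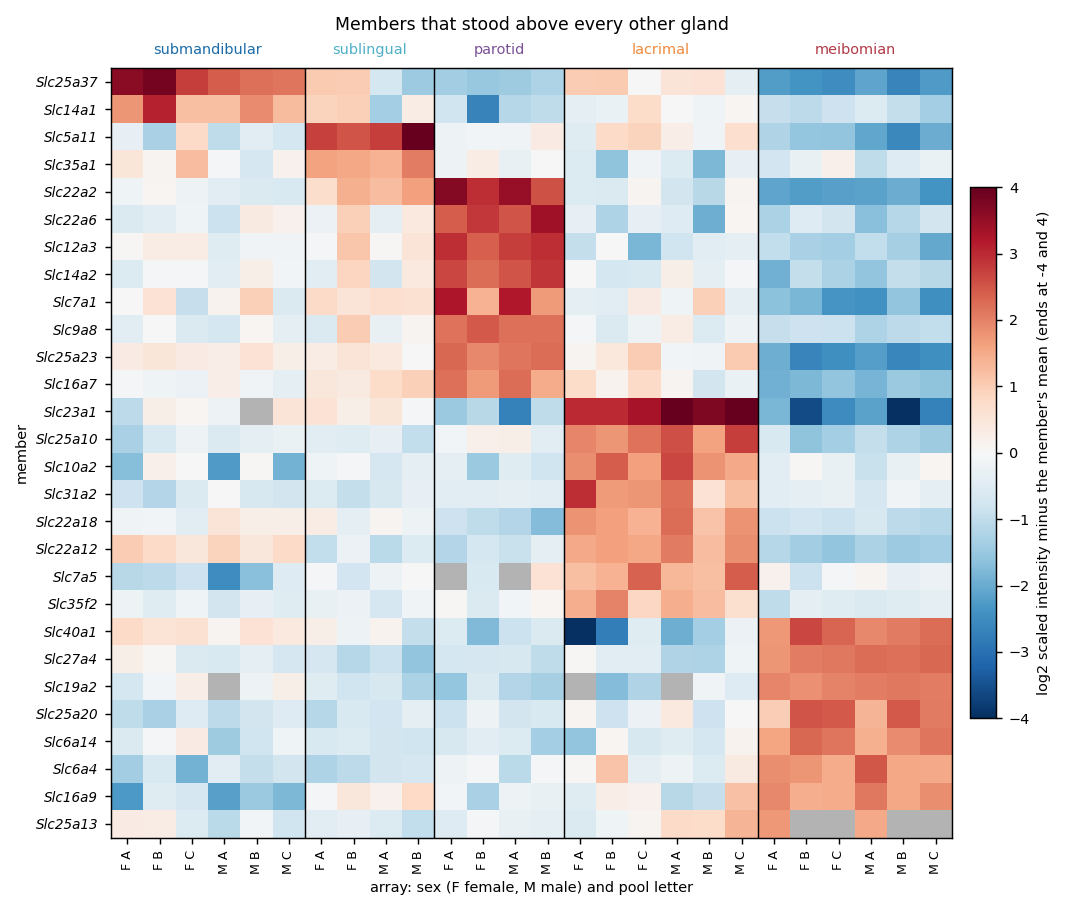
Each row is a member whose arrays in 1 gland all lay above those of every other gland, each column an array, and the colour is the log2 scaled intensity minus the member's mean (grey, no value). From the top the rows are 2 submandibular, 2 sublingual, 8 parotid, 8 lacrimal and 8 meibomian members, those with the highest differences where more qualified, and Slc25a13 has values on 2 of 6 meibomian arrays. Slc5a11, Slc10a2 and Slc6a4 passed the filter through their own gland alone.

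The salt and acid-base carriers were sparse on the array, with 4 of 6 cation-chloride cotransporter probes and 4 of 8 acid-base probes tested. Slc12a3, the thiazide-sensitive sodium-chloride cotransporter of the renal distal tubule, was at 29.4, 19.8, 25.7 and 29.4 in the parotid pools. The sublingual gland came next at 3.59 to 8.14, the submandibular was at 3.73, the lacrimal at 2.30 and the meibomian at 1.51. The parotid level was 9.09-fold above the mean of the others (3.18 ± 0.25, adjusted p = 2.92e-09). Slc12a8, a more distant member of that family, had levels of 6.60 (submandibular), 5.32 (sublingual), 2.76 (parotid), 0.303 (lacrimal) and 0.186 (meibomian). The submandibular and sublingual levels did not differ beyond their spread (0.31 ± 0.28, adjusted p = 0.537). It was called higher in all 3 salivary glands (2.79, 2.40 and 1.22) and lower in the lacrimal gland (-2.77 ± 0.20, adjusted p = 7.92e-10) and in the meibomian gland, where it was dim (at least 7.98-fold, -3.65 ± 0.20, adjusted p = 3.86e-12). Slc9a8, a sodium-proton exchanger of the Golgi and endosomes, was at 3.60, 4.31, 3.66 and 3.65 in the parotid pools and at 0.338 to 1.59 elsewhere (2.63 ± 0.21, 6.18-fold, adjusted p = 4.40e-09). Slc4a2, the chloride-bicarbonate exchanger of basolateral membranes, was highest in the meibomian gland at 2.92, above all other arrays (2.49 to 3.87 against 0.479 to 1.74; 1.48 ± 0.20, adjusted p = 1.84e-06).

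Of the other transport proteins (pumps, carbonic anhydrases, organic anion transporters of the Slco family, channels and regulators), 30 of 37 probes were tested. Called higher and lower were 5 and 12 in the lacrimal gland (background 11.6% and 8.57%) and 9 and 12 in the meibomian (17.0% and 20.9%). The counts were 7 and 3 in the parotid (8.94% and 8.12%), 10 and 2 in the submandibular (5.69% and 6.60%) and 4 and 1 in the sublingual gland (5.87% and 5.25%). In that order of glands their medians were -0.46, -0.16, 0.43, 0.18 and 0.25, and those of the solute carriers 0.17, -0.48, -0.03, -0.03 and -0.03. The list had more lower than higher calls in the lacrimal gland, and the solute carriers more higher than lower ones.

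Of 15 metal carrier probes 13 were tested and 9 passed the F test. Higher and lower calls numbered 3 and 1 in the lacrimal gland (background 11.6% and 8.57%) and 3 and 2 in the meibomian (17.0% and 20.9%). They were 0 and 1 in the parotid (8.94% and 8.12%), 0 and 1 in the submandibular (5.69% and 6.60%) and 0 and 0 in the sublingual gland (5.87% and 5.25%). Slc31a2, a copper transporter of endosomes, was at 27.4, 61.3 and 140 (lowest, median and highest) in the lacrimal gland and at 8.09 to 18.1 on all other arrays, a 4.79-fold difference (2.26 ± 0.20, adjusted p = 1.29e-08). The zinc carriers Slc30a7 (5.89) and Slc30a4 (14.3), which load zinc into the Golgi and vesicles, were called higher in the lacrimal gland (1.74 ± 0.24, adjusted p = 4.98e-06, and 1.02 ± 0.20, adjusted p = 3.28e-04), the second just past the size threshold. Slc39a7, which releases zinc from the endoplasmic reticulum, was at 7.80 to 11.1 in the meibomian gland and 15.3 to 38.4 elsewhere (-1.42 ± 0.13, adjusted p = 9.28e-09). Slc40a1, ferroportin, the iron exporter of the cell surface, was highest in the meibomian gland at 1.85, 2.46 and 3.51 and dim in the lacrimal gland at 0.0234, 0.176 and 0.474. The first was at least 5.34-fold above the mean of the others (2.79 ± 0.37, adjusted p = 1.45e-06) and the second at least 1.72-fold below (-2.27 ± 0.37, adjusted p = 4.04e-05). Slc30a1, the zinc exporter of the plasma membrane, was dim in the parotid (-1.68 ± 0.29, at least 1.32-fold, adjusted p = 9.60e-05) and highest in the meibomian gland at 0.872. Slc39a8, a zinc and manganese importer, was lowest in the submandibular gland at 0.362 (-1.17 ± 0.19, adjusted p = 7.59e-05).

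The mitochondrial carriers included the strongest submandibular member. Of 21 probes 18 were tested and 16 passed the F test among glands. In the meibomian gland 5 were called higher (background 17.0%) and 4 lower (20.9%), and at most 2 in a direction in any other gland. Slc25a37, mitoferrin, the iron importer of the inner mitochondrial membrane, was at 71.4, 82.9 and 39.6 in the female and 31.3, 26.7 and 25.5 in the male submandibular pools. All 6 lay above every other array (0.938 to 12.0), and the level was 12.7-fold above the mean of the others (3.66 ± 0.18, adjusted p = 5.01e-12). The lacrimal gland came next at 7.97, then the sublingual at 5.71, the parotid at 2.20 and the meibomian at 1.13. Slc25a37 is best known from developing red cells. Their markers Alas2, Hba-a1 and Epb42 differed from the other glands by 0.79 ± 1.18, 0.57 ± 0.36 and 0.27 ± 0.22 in the submandibular gland (adjusted p = 0.679, 0.261 and 0.391). The part of red cells in the Slc25a37 levels was not tested. Slc25a23, an ATP-magnesium and phosphate carrier, was at 21.9, 16.9, 19.5 and 20.6 in the parotid and at 0.705 to 1.14 in the meibomian gland, with 3.97 to 9.18 in the others (2.49 ± 0.20, adjusted p = 3.41e-09, and -3.19 ± 0.17, adjusted p = 1.64e-12). Slc25a10, the dicarboxylate carrier, was at 4.41 to 9.84 in the lacrimal gland and 0.476 to 1.68 elsewhere (2.72 ± 0.19, 6.60-fold, adjusted p = 2.88e-10). Slc25a20, the carnitine-acylcarnitine carrier that brings fatty acids in for oxidation, was at 3.98 to 11.5 in the meibomian gland and 0.835 to 2.69 elsewhere (2.58 ± 0.23, 5.96-fold, adjusted p = 5.77e-09). Slc25a1, the citrate carrier that supplies acetyl-CoA for lipid synthesis, was above all other arrays there too, at 11.5 (8.86 to 14.0 against 2.23 to 6.29; 1.49 ± 0.18, adjusted p = 5.42e-07). Slc25a4, the ATP-ADP carrier of muscle, was at 69.1 in the meibomian, 54.9 in the submandibular, 41.1 in the parotid and 34.8 in the sublingual gland and at 9.54 in the lacrimal gland (5.43 to 37.1; -2.34 ± 0.26, adjusted p = 3.16e-07).

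Carriers of the endoplasmic reticulum and Golgi were all above the filter (14 of 14), and 11 passed the F test. Slc35a1, which brings CMP-sialic acid into the Golgi, was at 16.5 and 15.8 in the female and 14.1 and 22.3 in the male sublingual pools and at 1.55 to 12.7 elsewhere. The sublingual gland, a mucous gland, was 3.79-fold above the mean of the others (1.92 ± 0.28, adjusted p = 2.98e-05) and 1.43 ± 0.33 above the submandibular gland, next in order (adjusted p = 0.00403). Slc35b2, the transporter of the sulfate donor PAPS, was lowest in the meibomian gland at 1.84, below all other arrays (-1.59 ± 0.13, adjusted p = 1.48e-09), and Slc35f2 was highest in the lacrimal gland (2.22 to 5.68 against 0.718 to 1.53; 1.61 ± 0.16, adjusted p = 7.62e-08). Slc37a2, a sugar phosphate carrier of the endoplasmic reticulum, was at 14.1, 15.1, 10.3 and 10.8 in the parotid and lowest in the lacrimal gland at 0.929 (2.54 ± 0.23, adjusted p = 1.75e-08, and -2.13 ± 0.19, adjusted p = 1.75e-08).

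Vesicular carriers were low in the meibomian gland, with all 3 tested probes called lower there (background 20.9%). Slc17a5, the sialic acid exporter of lysosomes, was at 13.9 in the parotid, 12.6 in the sublingual, 10.5 in the submandibular and 9.33 in the lacrimal gland and at 1.10 to 2.37 on the meibomian arrays (-3.04 ± 0.19, 8.25-fold lower, adjusted p = 1.80e-11). The Slc17a6 probe, for the vesicular glutamate transporter of neurons, was at 2.17, 2.02 and 1.41 in the sublingual, parotid and submandibular glands, and dim in the lacrimal (0.314) and meibomian glands (0.0562; at least 4.04-fold lower, -4.39 ± 0.29, adjusted p = 5.91e-11). Another Slc17a6 probe reached the percentile in no group and was highest in the lacrimal gland at 0.268, so the probes of this gene disagree. Slc18b1, a vesicular polyamine transporter, was dim in the meibomian gland at 0.175 (-2.06 ± 0.15, at least 2.50-fold lower, adjusted p = 7.62e-09) and highest in the lacrimal gland at 1.02, with no value on 5 arrays. Among smaller groups, Slc20a1, a phosphate transporter, was higher in the meibomian gland (1.84; 1.40 ± 0.22, adjusted p = 1.49e-05) and Slc24a2, a calcium exchanger, lower there (0.592; -1.06 ± 0.17, adjusted p = 1.18e-05). No nucleoside transporter was called in a gland, though 3 of 4 passed the F test among glands (Slc29a1, Slc29a2 and Slc28a2, adjusted p = 0.00192, 6.36e-04 and 0.0327). Several named members were near the size threshold or differed little. Slc4a10, a sodium-driven bicarbonate carrier, was lower in the meibomian gland at 1.30 (-1.04 ± 0.16, adjusted p = 7.97e-06). Slc12a4, a potassium-chloride cotransporter, was lower in the parotid, where it was dim (-1.11 ± 0.36, adjusted p = 0.0221; 0.107 with the random replicate block). The glycine transporter Slc6a9 was highest in the lacrimal gland at 0.462 and dim in the meibomian gland at 0.135. The heme carrier Slc48a1 was highest in the lacrimal gland at 5.84 (0.75 ± 0.13, adjusted p = 5.85e-05), short of the size threshold, as was the sodium-phosphate cotransporter Slc34a1, which was dim in the meibomian gland (-0.81 ± 0.19, adjusted p = 0.0010). Neither the dicarboxylate carrier Slc13a2 nor the calcium exchanger Slc24a3 was called in a gland. Of the genes named after a carrier, Slc9a3r1 was highest in the lacrimal gland at 0.626 and dim in 3 glands, with 8 arrays without a value, and Slc4a1ap reached no call. Slc9a3r2, a scaffold protein for sodium-proton exchanger 3, was below all other arrays in the meibomian gland (-2.44 ± 0.18, adjusted p = 1.79e-10).

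**Figure D3:**
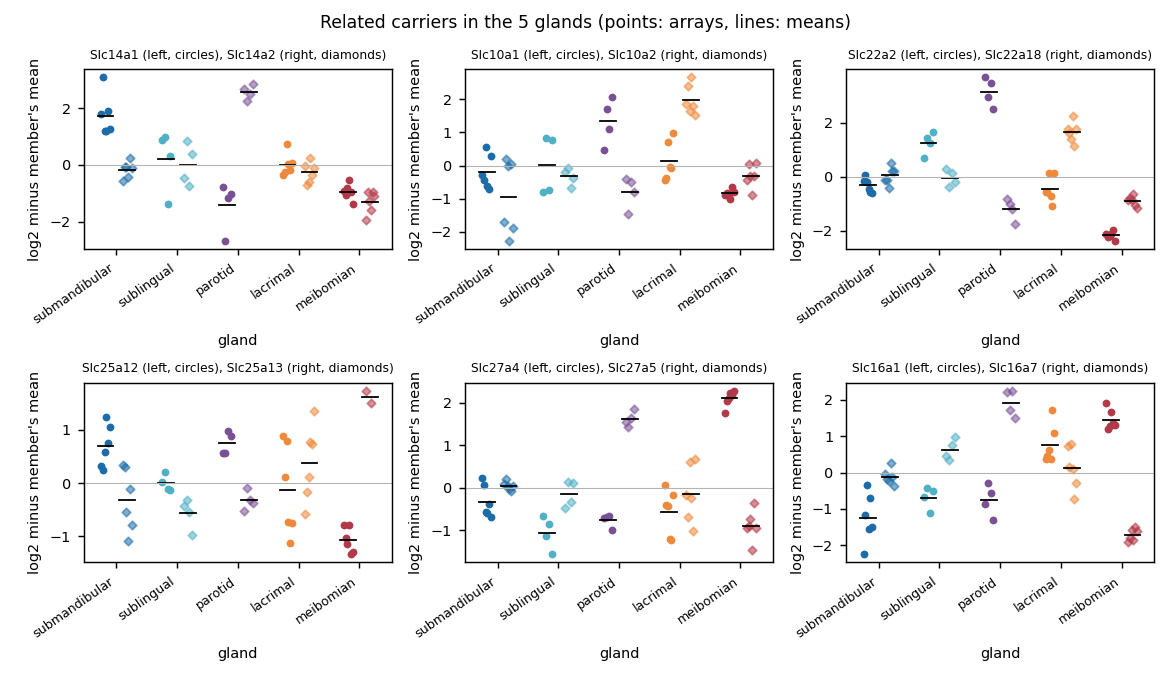
Each panel shows a pair of related carriers in the 5 glands as log2 scaled intensity minus the member's mean, points for arrays and lines for gland means. Slc14a1 peaks in the submandibular and Slc14a2 in the parotid gland, Slc10a1 in the parotid and Slc10a2 in the lacrimal gland, and Slc16a1 and Slc16a7 are at opposite ends in the meibomian gland.

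Sex differences were fewer. Males and females were compared within each gland, with 3 pools a sex in all but the sublingual and parotid glands, which had 2. Of 130 members 9 were called in the lacrimal gland (background 5.41%), 4 higher in males (2.90%) and 5 lower (2.51%). The submandibular gland had 3 (background 2.59%), 2 higher (1.92%) and 1 lower (0.670%). The sublingual gland had 0 higher (background 0.0853%) and 1 lower (0.122%), or 1 in all (0.207%). The parotid gland had 0 (background 0.0244%), as had the meibomian gland (0.0365%). For the glands with none, limma gave 1 member (parotid, background 1.62%) and 0 members (meibomian, background 0.231%) at an unadjusted p under 0.05. Pools of the same letter paired across the sexes. With this replicate block 23 members were called in the lacrimal gland (background 13.5%), 12 in the submandibular gland (7.23%), 1 in the sublingual gland (0.438%) and 0 in both the parotid (0.0122%) and the meibomian gland (0.0365%). The 12 were 5 higher and 7 lower in males, and the 23 were 11 higher and 12 lower.

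In the submandibular gland Slc37a2 was the member that differed most. It was at 10.2, 10.6 and 8.78 in the female pools A, B and C and at 1.23, 1.49 and 1.82 in the male pools. All female pools lay above all male pools (-2.71 ± 0.34, 6.56-fold higher in females, adjusted p = 3.87e-05). Slc41a3, a magnesium transporter, went the other way, at 0.312, 0.310 and 0.320 in females, where it was dim, and at 1.2, 1.5 and 1.64 in males (2.19 ± 0.41, at least 4.27-fold, adjusted p = 0.00255). Slc7a8, a basolateral neutral amino acid exchanger, was at 0.294, 0.241 and 0.260 in females, also dim, and at 0.810, 1.27 and 0.891 in males (1.88 ± 0.39, at least 2.89-fold, adjusted p = 0.00774). Its call was lost without male submandibular B (adjusted p = 0.0608) and in set 2 alone (0.280).

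With the replicate block, Slc25a37 was also called in the submandibular gland, higher in females (61.7 against 27.7, -1.15 ± 0.20, adjusted p = 0.00455; 0.0595 without the block), as was the Slc17a6 probe, higher in males (0.587, 1.17 and 0.590 in females against 2.18, 4.74 and 1.85; 1.85 ± 0.40, adjusted p = 0.0174; 0.0596 without the block). The others called only with the block had smaller differences. Slc35b4 and Slc25a12 were higher in males (0.80 and 0.63), and Slc38a1, Slc9a3r2, Slc35a1, Slc17a5 and Slc48a1 lower (-1.02, -0.82, -0.80, -0.76 and -0.68). Skeletal muscle probes were higher in the male submandibular pools (6 of 11 called, summed level 23.9 to 29.8 against 4.06 to 5.98 in females), as were smooth muscle and myoepithelial probes (4 of 7, 119 to 232 against 40.7 to 67.4) and submandibular duct probes (3 of 4, 652 to 864 against 369 to 491). Their part in these differences was not tested.

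In the sublingual gland the only member called was Slc25a37. It was at 12.0 and 11.8 in the female and at 3.52 and 2.13 in the male pools (-2.12 ± 0.39, 4.35-fold higher in females, adjusted p = 0.0131). The groups did not overlap, and the call was lost without female sublingual A (adjusted p = 0.140), female sublingual B (0.109) or male sublingual B (0.422), each of which leaves 1 pool in an arm. It was also lost in set 2 alone (0.271) and with the sublingual arrays alone (0.816). No red cell probe was called between the sexes in any gland. Of 4 submandibular duct probes 2 were called higher in the male sublingual pools, Egf (3.42, adjusted p = 0.0106) and Klk1b24 (4.24, adjusted p = 0.00167). The summed level of that list was 315 to 351 in males and 201 to 298 in females. The part of either list in the Slc25a37 difference was not tested.

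The lacrimal gland held most of the sex differences. Of the 9 lacrimal members called over all arrays, Slc5a3, Slc38a1, Slc43a1 and Slc25a13 were higher in males. Lower in males were Slc25a12, Slc39a8, Slc12a8, Slc15a2 and Slc5a1. Slc5a3, which takes up inositol with sodium and is known to respond to osmotic stress, was at 0.517, 0.494 and 0.668 in the female pools and at 5.07, 1.92 and 4.47 in the male pools. The lowest male pool was above the highest female pool (2.66 ± 0.33, 6.34-fold, adjusted p = 1.69e-05), and the difference was 1.96 in set 1 and 3.02 in set 2. Slc38a1 was at 0.379, 0.459 and 0.777 in females and 2.27, 1.37 and 2.73 in males (1.99 ± 0.45, 3.97-fold, adjusted p = 0.00829). Without female lacrimal A its adjusted p was 0.0512, and in set 2 alone 0.0605. Slc43a1, a large neutral amino acid transporter, was at 0.420, 0.112 and 0.279 in females and 0.749, 0.347 and 1.21 in males, so the sexes overlapped (1.53 ± 0.44, adjusted p = 0.0475). Its call was lost in 22 of 26 fits that left out 1 array, with adjusted p up to 0.276.

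The paralogs Slc25a12 and Slc25a13, the aspartate-glutamate carriers of the malate-aspartate shuttle, were called in opposite directions. Slc25a12, the form of muscle and brain, was at 5.56, 3.28 and 5.23 in the female and at 1.82, 1.38 and 1.80 in the male lacrimal pools (-1.46 ± 0.23, 2.76-fold higher in females, adjusted p = 2.03e-04). Slc25a13, citrin, the form of liver, was at 0.725, 0.966 and 1.17 in females and at 1.84, 1.80 and 2.77 in males (1.16 ± 0.31, 2.24-fold, adjusted p = 0.0360). Neither overlapped between the sexes. The Slc25a13 call was lost without female lacrimal A (adjusted p = 0.15), female lacrimal B (0.0833), male lacrimal C (0.123) or both lacrimal C pools (0.114), in set 2 alone (0.151), and with missing cells set to the floor (0.880). In the other glands Slc25a13 differed by -0.70 (submandibular), -0.39 (sublingual), -0.04 (parotid) and -0.22 (meibomian, from 1 pool a sex) (adjusted p = 0.433, 1.0, 1.0 and 1.0). In the meibomian gland it was above all other arrays on the 2 arrays with a value (3.59 and 3.08, both A pools). The direction there turned when the 4 missing cells were set to the floor (from 1.83 to -2.94).

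Slc39a8 was at 1.93, 1.27 and 2.41 in female and 0.605, 0.303 and 0.762 in male lacrimal pools (-1.80 ± 0.33, 3.49-fold higher in females, adjusted p = 0.00145). Slc5a1, the sodium-glucose cotransporter of the intestine, was at 2.28, 2.95 and 3.64 in females and at 1.07, 0.809 and 2.13 in males (-1.24 ± 0.28, adjusted p = 0.00908). Its adjusted p was 0.0515 without female lacrimal C and 0.0577 without male lacrimal B. Slc15a2, a proton-coupled peptide transporter, was at 4.73, 4.27 and 5.05 in females and at 1.86, 1.18 and 2.79 in males (-1.35 ± 0.37, adjusted p = 0.0363). That call was lost without any 1 of female lacrimal A (0.0946), B (0.0729) or C (0.101) and male lacrimal A (0.0690) or B (0.181). Slc12a8 was at 0.503, 0.469 and 0.509 in females and dim in males at 0.255, 0.137 and 0.185 (-1.41 ± 0.36, at least 1.17-fold, adjusted p = 0.0201), and this was lost without female lacrimal A, B or C (0.0615, 0.0505 and 0.0563) or male lacrimal B (0.0959), and without both C pools (0.108). The 9 lacrimal differences had the same sign in set 1 and in set 2. Besides Slc38a1 and Slc25a13, given above, Slc5a1 (adjusted p = 0.247) and Slc15a2 (0.199) were not called in set 2 alone.

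The replicate block added 14 lacrimal members. Higher in males were Slc23a1 (3.39, 3.40 and 4.21 in females against 11.3, 5.75 and 11.8; 1.33 ± 0.25, adjusted p = 0.00635; 0.211 without the block), the cystine-glutamate exchanger Slc7a11 (0.753, 0.916 and 0.375 against 1.89, 1.49 and 1.75; 1.42 ± 0.26, adjusted p = 0.00426; 0.0514 without the block), Slc25a33, Slc25a2, Slc24a3, Slc19a2 and Slc40a1. The pyrimidine nucleotide carrier Slc25a33 differed by 1.03 ± 0.25 (adjusted p = 0.0180; 0.0742 without the block). Lower in males were Slc16a7 (-0.85 ± 0.15, adjusted p = 0.00274; 0.0628 without the block), Slc44a4 (-1.28 ± 0.27, adjusted p = 0.00902; 0.142), and the metal carriers Slc31a1, Slc31a2 and Slc30a4 (-0.90, -0.81 and -0.61), with Slc25a15 and Slc50a1 (-0.81 and -0.75). Slc40a1 was dim in both sexes, and Slc24a3 and Slc19a2 in females. Of 7 adipocyte probes 2 were lower in the male lacrimal gland (Adipoq -1.73 and Retn -1.49, summed level of the list 11.4 to 29.3 against 22.0 to 46.2) and 1 of 5 B and plasma cell probes was higher (40.7 to 81.1 against 12.0 to 33.9). Their part in these differences was not tested.

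**Figure D4:**
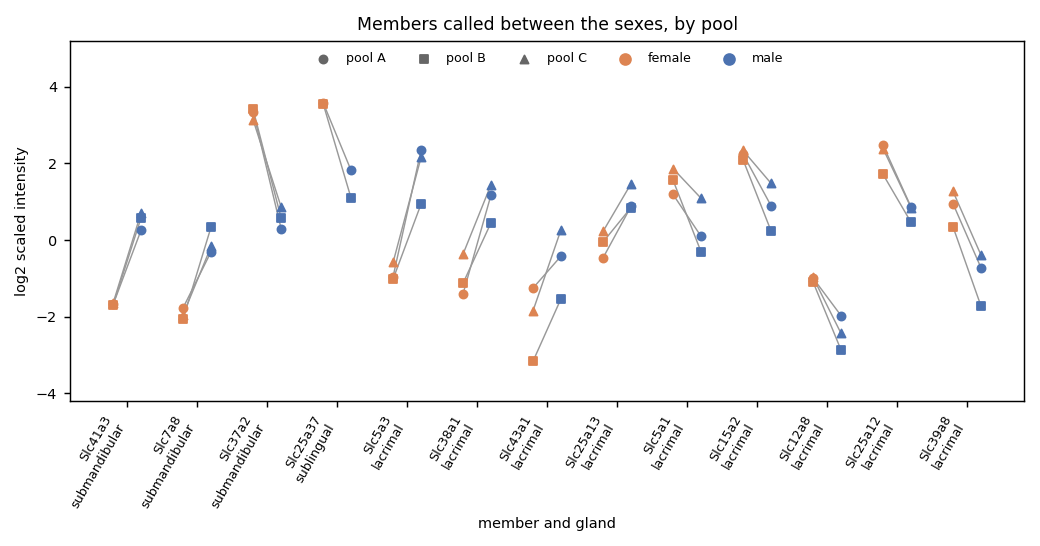
Log2 scaled intensity of the 13 members called between the sexes in a gland, females in orange and males in blue, with a line for each pool letter. The lines of Slc5a3 rise in all 3 pairs and those of Slc25a12 fall in all 3, and the sexes overlap for Slc43a1 alone.

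Upstream sequences of 4 of the members called in the lacrimal gland are given: Slc5a3 (higher in males) and Slc25a12, Slc5a1 and Slc15a2 (lower in males). Each is the 250 bases before the transcription start in RefSeq (GRCm38.p6), 5′ to 3′ on the gene's strand, with the 6-base androgen response element arm AGAACA, or its reverse complement TGTTCT, in capitals. They are chr16:92058072-92058321 (+), chr2:71367756-71368005 (-), chr5:33103969-33104218 (+) and chr16:36784963-36785212 (-).
Slc5a3: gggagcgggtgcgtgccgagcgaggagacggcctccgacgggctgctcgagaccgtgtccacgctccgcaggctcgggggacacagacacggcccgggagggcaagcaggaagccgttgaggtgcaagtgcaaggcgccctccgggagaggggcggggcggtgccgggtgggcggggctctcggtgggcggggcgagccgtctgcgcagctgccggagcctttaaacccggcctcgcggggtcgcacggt
Slc25a12: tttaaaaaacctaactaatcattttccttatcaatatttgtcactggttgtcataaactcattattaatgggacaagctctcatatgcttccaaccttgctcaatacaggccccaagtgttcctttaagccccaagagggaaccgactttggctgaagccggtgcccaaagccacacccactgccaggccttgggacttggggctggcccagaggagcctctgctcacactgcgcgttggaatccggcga
Slc5a1: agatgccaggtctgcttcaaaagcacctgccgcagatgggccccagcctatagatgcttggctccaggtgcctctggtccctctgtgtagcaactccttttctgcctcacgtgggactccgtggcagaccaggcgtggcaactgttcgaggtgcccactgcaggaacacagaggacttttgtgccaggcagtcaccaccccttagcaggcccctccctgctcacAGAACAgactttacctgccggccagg
Slc15a2: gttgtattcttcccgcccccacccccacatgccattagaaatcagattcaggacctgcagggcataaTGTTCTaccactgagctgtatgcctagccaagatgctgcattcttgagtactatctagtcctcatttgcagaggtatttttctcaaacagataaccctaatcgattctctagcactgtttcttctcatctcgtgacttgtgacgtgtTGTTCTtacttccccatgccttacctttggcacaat
Of the 13 genes called between the sexes in a gland, 11 had an entry, with 14 windows. The arm was found in 2 of these windows, once before Slc5a1 and in 2 places before Slc15a2. Both are among the 4 shown, while other called lacrimal genes with an entry, such as Slc39a8, are not shown. The shown windows thus overstate how often the arm occurs. It is in 16.1% of all 32851 windows of this length, and the palindrome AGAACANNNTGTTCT is in 0.00913% of them and in none of the 4 shown. Slc25a37 and Slc38a1 were not matched. These are matches of letters and not sites of binding.

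Over the mean of the 5 glands, 2 members were called (background 1.27%), 0 higher (0.877%) and 2 lower in males (0.390%). Slc37a2 differed by -0.84 ± 0.17 (adjusted p = 0.00902) and was lower in males in 10 of 13 pairs. Slc25a37 differed by -0.71 ± 0.16 (adjusted p = 0.0205), also in 10 of 13 pairs, and was lost without male sublingual B (0.0616) or male parotid A (0.0507). With the replicate block 4 were called (background 4.02%), with Slc7a8 (0.69 ± 0.12, adjusted p = 0.0102; 0.105 without the block) and Slc5a3 (0.51 ± 0.12, adjusted p = 0.0431; 0.192) higher in males. In set 2 alone the mean differences of Slc37a2 (adjusted p = 0.0586) and Slc25a37 (0.306) were not called.

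The test of whether the sex difference itself differed between glands called 4 members (background 2.62%), Slc5a3 (adjusted p = 0.00226), Slc25a12 (0.00288), Slc37a2 (0.00709) and Slc41a3 (0.0293). For Slc5a3 the difference was 2.66 in the lacrimal gland and 0.10 (sublingual), 0.07 (parotid), -0.14 (submandibular) and -0.14 (meibomian) in the others, each with a standard error of 0.33 or 0.41. Slc25a12 was called in the lacrimal gland (-1.46 ± 0.23), and its difference was 0.63 ± 0.23 in the submandibular gland (adjusted p = 0.214; 0.0200 with the replicate block). For Slc37a2 the differences were 0.06 (meibomian), -0.30 (lacrimal), -0.46 (parotid), -0.78 (sublingual) and -2.71 (submandibular). Slc41a3 was at 2.19 in the submandibular gland and at -0.63 in the lacrimal gland (adjusted p = 0.556). With the replicate block 16 members passed (background 7.04%), the 4 above and Slc38a1, Slc39a8, Slc25a37, Slc15a2, Slc30a4, Slc7a11, Slc16a7, Slc44a4, Slc43a1, Slc23a1, Slc7a8 and Slc12a8. Of these, Slc38a1 was higher in males in the lacrimal gland (1.99) and lower in the submandibular gland (-1.02 ± 0.24, adjusted p = 0.0239 with the replicate block).

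**Figure D5:**
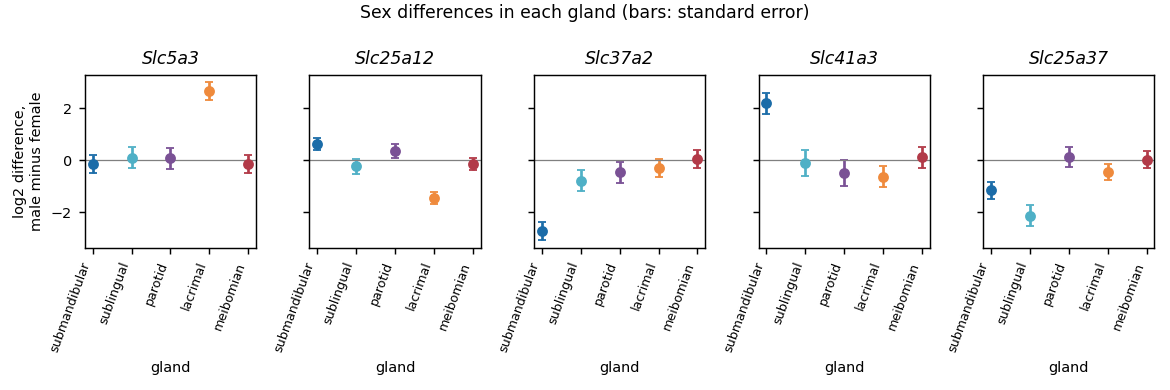
Log2 difference between male and female pools in each gland for 5 members, with standard errors. Slc5a3 and Slc25a12 differ in the lacrimal gland (2.66 and -1.46), Slc37a2 and Slc41a3 in the submandibular gland (-2.71 and 2.19), and Slc25a37 in the sublingual gland (-2.12).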

How the data were processed

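Per the labels, 26 arrays measured mRNA of 5 mouse glands, each array a pool of 5 animals (10 glands), and pools A, B and C of a group are of separate animals. P-values thus measure the spread between pools, with 1 spread per probe shared by all 10 groups. A test within a gland therefore also uses the spread of the other glands, although the median SD differed between them (0.514 lacrimal, 0.250 meibomian). The authors deposited linear intensities of 10500 probes, and the close array medians show that these were scaled. How this and any background correction were done is not given in the sources used here. Cells holding -1 were read as missing (46 of the members' cells, on 15 probes), lower values were raised to 0.0234, the 1st percentile of the positive values, and log2 was taken.

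Probes reaching the 30th percentile of their array on every measured array (at least 2) of 1 group were kept, 8211 in all. They were fitted over all 26 arrays with 10 group means in limma 3.58.1 (R 4.3.3), with 16 residual and 4.11 prior degrees of freedom. Calls need an adjusted p under 0.05 and, between glands, a log2 difference of at least 1. Symbols came from the platform annotation, and all 169 probes matched RefSeq by Entrez identifier with the same symbol.

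The pool letter paired male and female arrays: in the glands with 3 pools the 9 pairs correlated at 0.441 to 0.816 in their deviations from the group means over 7555 probes, all 9 best in their gland. The replicate block is a fixed term for sex and a random one between glands (correlation 0.563). Precision is limited by the number of arrays.

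The members and lists were chosen with earlier results of these data known. Named are all members called between the sexes (up to 10 per direction), up to 8 by the F test of sex between glands, per gland the 8 highest among called members whose arrays lie apart and the 4 lowest among those with the lowest mean there, up to 3 per role by the F test among glands, and genes whose probes disagree. Others named (Slc50a1, Slc25a1, Slc30a4, members called with the replicate block and those of the smallest gland range) were chosen after their values were seen. Alternatives set the missing code to the floor, dropped the filter, raised the floor to the 5th percentile, normalized by quantiles, weighted arrays, left out each array, used 1 sex, 1 gland or set 2 alone, and, added after seeing the data, the set as a term and no lacrimal C pools.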

Additional observations from a re-analysis of the deposited data

Results flagged for a closer look

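The sex difference of 4 members differed between the glands by limma's moderated F test. The adjusted p was 0.00226 for Slc5a3, with 2.66 ± 0.33 (male minus female, log2) in the lacrimal gland and at most 0.14 in size elsewhere, and the male level was higher in 3 of 3 lacrimal pairs. For Slc25a12 the adjusted p was 0.00288, with 0.63 ± 0.23 (submandibular) and -1.46 ± 0.23 (lacrimal). For Slc37a2 the adjusted p was 0.00709, with -2.71 ± 0.34 in the submandibular gland and 0.06 ± 0.34 in the meibomian gland. For Slc41a3 the adjusted p was 0.0293, with -0.63 ± 0.41 (lacrimal) and 2.19 ± 0.41 (submandibular). Groups of 2 or 3 pools were too small to be searched for single outlying arrays.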

How the results depend on the processing

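The gland counts kept within 1.5 times under the alternatives run, except that 58 lacrimal members were called without the filter (30 with it). Leaving out 1 array gave 12 to 18 members in the submandibular, 11 to 18 in the sublingual, 26 to 31 in the parotid, 26 to 31 in the lacrimal and 64 to 68 in the meibomian gland, and 105 to 119 past the F test among glands. The sex counts moved more. The submandibular count of 3 was 5 with array weights, 12 with the replicate block, 5 with the set as a term, 7 without both lacrimal C pools, and 2 to 5 with 1 array left out. It was also 3 with its own arrays alone. The sublingual count of 1 was 0 with its own arrays alone or set 2 alone and 0 to 2 with 1 array left out. The parotid count of 0 was 3 in set 2 alone. The lacrimal count of 9 was 16 after quantile normalization, 3 with array weights, 23 with the replicate block, 2 with its own arrays alone and 6 to 10 with 1 array left out. The count over the mean of the glands (2) was 4 with the replicate block, 1 in set 2, 4 without both lacrimal C pools and 1 to 3 with 1 array left out. The F test of sex between glands (4) gave 7 with array weights, 16 with the replicate block, 7 with the set as a term and 3 to 7 with 1 array left out. The meibomian difference of Slc25a13 turned to -2.94 with missing cells at the floor, which puts 4 of 6 arrays there. The causes of the other moves were not tested. Set 1 alone leaves 1 array per group and gives no test, and calls that the replicate block added or ended are given beside the members.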
